A study of Drosophila melanogaster with 16 samples.

Results

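The glutathione S-transferase (Gst) and UDP-glycosyltransferase (Ugt) genes of the fly were followed in heads of flies that expressed a long or a short GGGGCC repeat. Genes were taken by name alone, as those whose symbol in the deposited files was Gst with a class letter and a number or Ugt with a number. This gave 52 of 17558 genes: 35 Gst genes (11 of class D, 14 of class E, 3 of class O, 1 of class S, 4 of class T and 2 of class Z) and 17 Ugt genes. A further 18 genes carry a Ugt name only as their current gene symbol and are described apart, near the end.

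Gst enzymes couple the tripeptide glutathione to reactive or fat-soluble compounds, and Ugt enzymes couple them to a sugar, which in insects is mostly glucose. Both make their substrates more soluble and easier to export, and both families are best known for clearing insecticides, plant toxins and the products of lipid peroxidation. The D and E classes are the large classes of insects and lie in tandem arrays, while the omega (O), sigma (S), theta (T) and zeta (Z) classes have relatives in mammals. In the fly head, both families are known from the fat body and from the support cells of the antenna, where such enzymes are thought to help clear odorants.

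RNA was sequenced from heads of male Drosophila melanogaster, 5 to 8 days after eclosion, raised at 25 °C. In Chrom2-160R flies a transgene with the 160-unit repeat (160R) was expressed from chromosome 2, and in Chrom2-5R flies one with the 5-unit repeat (5R) was expressed from the same chromosome. Chrom3-160R and Chrom3-5R flies expressed the same 2 repeat lengths from chromosome 3. Each group had 4 libraries, 16 in all, and the series title places the flies as a model of C9ORF72 frontotemporal dementia and amyotrophic lateral sclerosis. The labels name no driver or promoter for the transgene, no insertion site and no origin of the replicates, so the p-values speak only to the scatter among these libraries, and that scatter could be technical. Every group carried a repeat transgene, and no fly without one was compared.

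Library totals ran from 11452337 counts (Chrom2-5R replicate 1) to 53615117 counts (Chrom3-5R replicate 4), and every chromosome 3 library was deeper than every chromosome 2 library. The 52 genes together took 0.114% to 0.154% of the counts of a library. Libraries of 1 group differed beyond sampling noise in every pair (chi-square per degree of freedom 6.48 to 41.4). The head label held: the summed levels of 6 photoreceptor markers were 14048 to 30452 CPM (counts scaled to the size of the library) and those of 6 neuron markers 4200 to 4953 CPM. Libraries stood apart in their content of other tissues. Chrom2-160R replicate 1 had 8963 CPM of 8 muscle markers, against 4390 to 4511 CPM in the other Chrom2-160R libraries, and 117 CPM of 7 accessory gland and testis markers, against 8.94 to 14.1 CPM. Chrom3-160R replicate 4 had 5180 CPM of the muscle markers, against 2888 to 3867 CPM in the other Chrom3-160R libraries. Counts of calls that use these libraries are given with and without them.

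The levels of these genes in the head covered more than 3 orders of magnitude (the plot of levels by class). Levels between genes are compared as CPM per kb of gene span, introns included, as the mean over all 16 libraries. GstE12 had the highest level (156 CPM per kb), followed by GstE9 (124 CPM per kb) and GstD1 (93.1 CPM per kb), the enzyme known for breaking down DDT. Among Ugt genes, Ugt35b, described in the fly as an antennal enzyme, had 62.5 CPM per kb and Ugt36Bc had 30.4 CPM per kb. GstE1, GstE6 and GstE3, which lie in the same array as GstE9, had 60.3, 56.3 and 50.7 CPM per kb.

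The other classes sat in the middle of the order. GstO3 had 18.3 CPM per kb and GstO2 17.4 CPM per kb, GstT1 had 17.0 and GstT2 16.2, GstS1 had 13.8, and GstZ2 had 13.5 against 7.54 for GstZ1. GstD3 (13.6 CPM per kb) was the next of class D after GstD1. At the low end, GstD6, GstD7 and Ugt86Dj did not pass the filter on low counts and were not tested: no library held more than 6 counts of GstD6 or GstD7 or more than 12 counts of Ugt86Dj. Of the 49 genes tested, 38 averaged at least 1 CPM over the 16 libraries. The 11 below 1 CPM were GstD4, GstD5, GstD8 and GstE4 and the Ugt genes Ugt36Ba, Ugt36Bb, Ugt37a1, Ugt37c1, Ugt86Dc, Ugt86Dg and Ugt86Dh, where counting error weighs most.

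**Figure D1:**
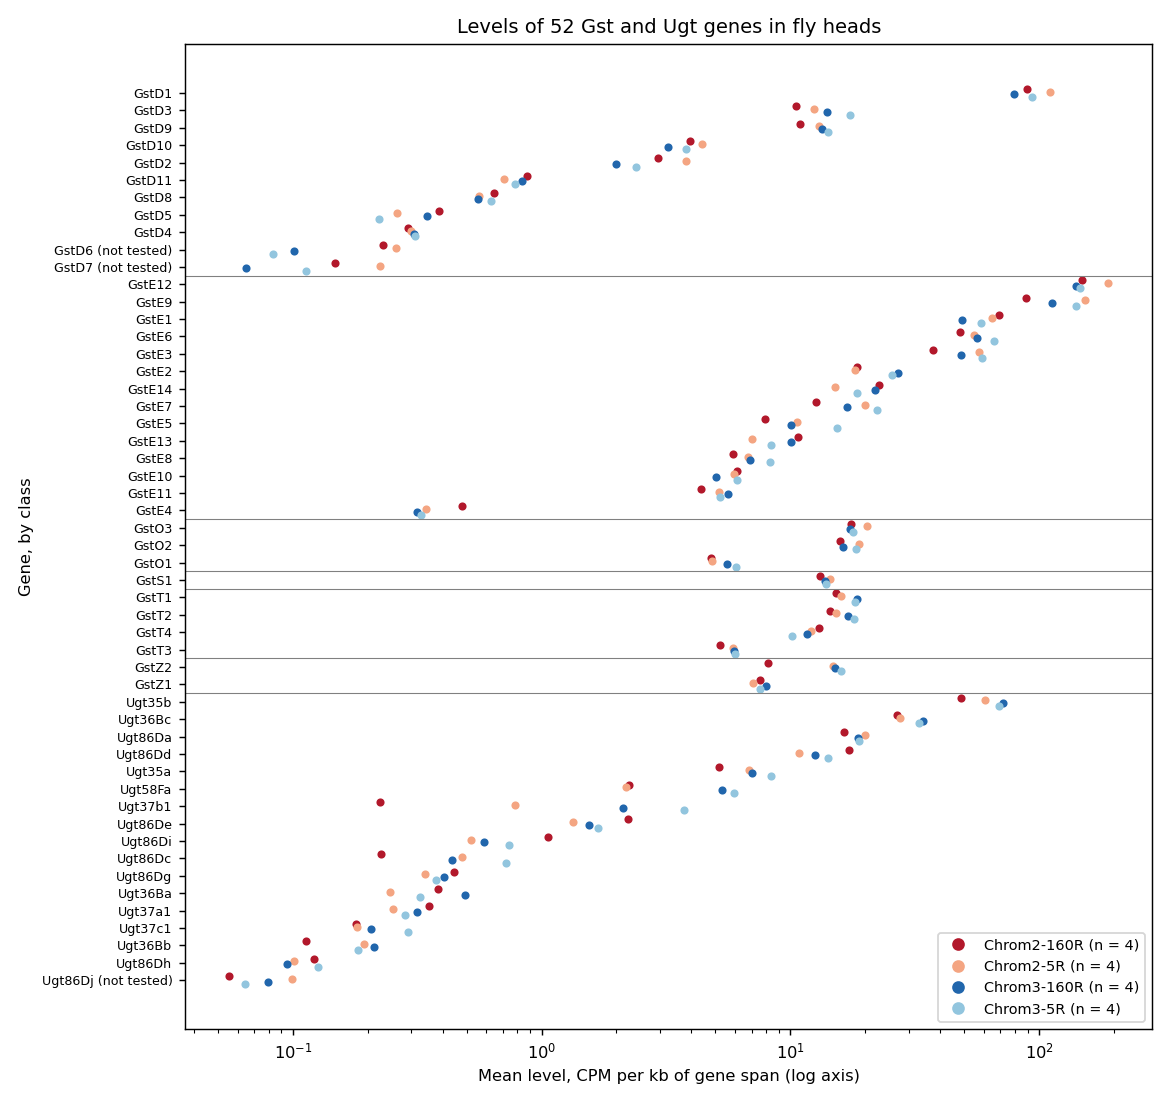
Mean level of each of the 52 genes in each group (CPM per kb of gene span, log axis; 4 libraries per point), by class and from the highest to the lowest gene within a class. GstE12, GstE9, GstD1 and Ugt35b lie at the right, and the points of Ugt37b1 are the most widely spread between groups.

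With the transgene on chromosome 2, more of these genes were lower than higher in 160R heads. Of the 52 genes, 15 were lower and 5 higher in Chrom2-160R than in Chrom2-5R (adjusted p below 0.05 over 13525 genes), against 13.3% of all genes tested lower and 12.8% higher, 26.1% in either direction. Among the 38 genes that averaged at least 1 CPM, 14 were lower (36.8%) and 5 higher (13.2%), and among all 11375 genes above that level 15.4% were lower and 14.6% higher. The median log2 change was -0.14 over the 49 genes tested, -0.15 over Gst genes and -0.01 over Ugt genes, and 0.01 over all genes. Without Chrom2-160R replicate 1 the number of calls was 22, and without both libraries that stood apart it was 23, against 20 with them.

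By class, the number lower and higher was 2 and 0 of 11 for D, 5 and 2 of 14 for E, 2 and 0 of 3 for O, 0 and 0 for S (1 gene) and T (4 genes), 1 and 0 of 2 for Z, and 5 and 3 of 17 for Ugt (the plot of repeat changes). In the S and T classes, GstT3 alone had an unadjusted p below 0.05 by edgeR, and neither DESeq2 nor limma-voom called any of the 5 genes. Leaving out Chrom2-160R replicate 1 gave 3 lower genes in class D and 1 in class S, which was GstS1. Leaving out both libraries that stood apart gave the same, and 6 lower genes in class E. By chromosome arm, 7 of 19 tested genes on 2R were called (36.8%, against 26.6% of all genes tested on that arm) and 10 of 20 on 3R (against 26.1% of all genes tested there). On 2L, 1 of 5 tested genes was called, against 24.6% of all genes tested there. The numbers were 2 of 3 on 3L (against 25.3%) and 0 of 2 on X (against 28.1%). The part of the insertion chromosome in these calls was not tested.

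**Figure D2:**
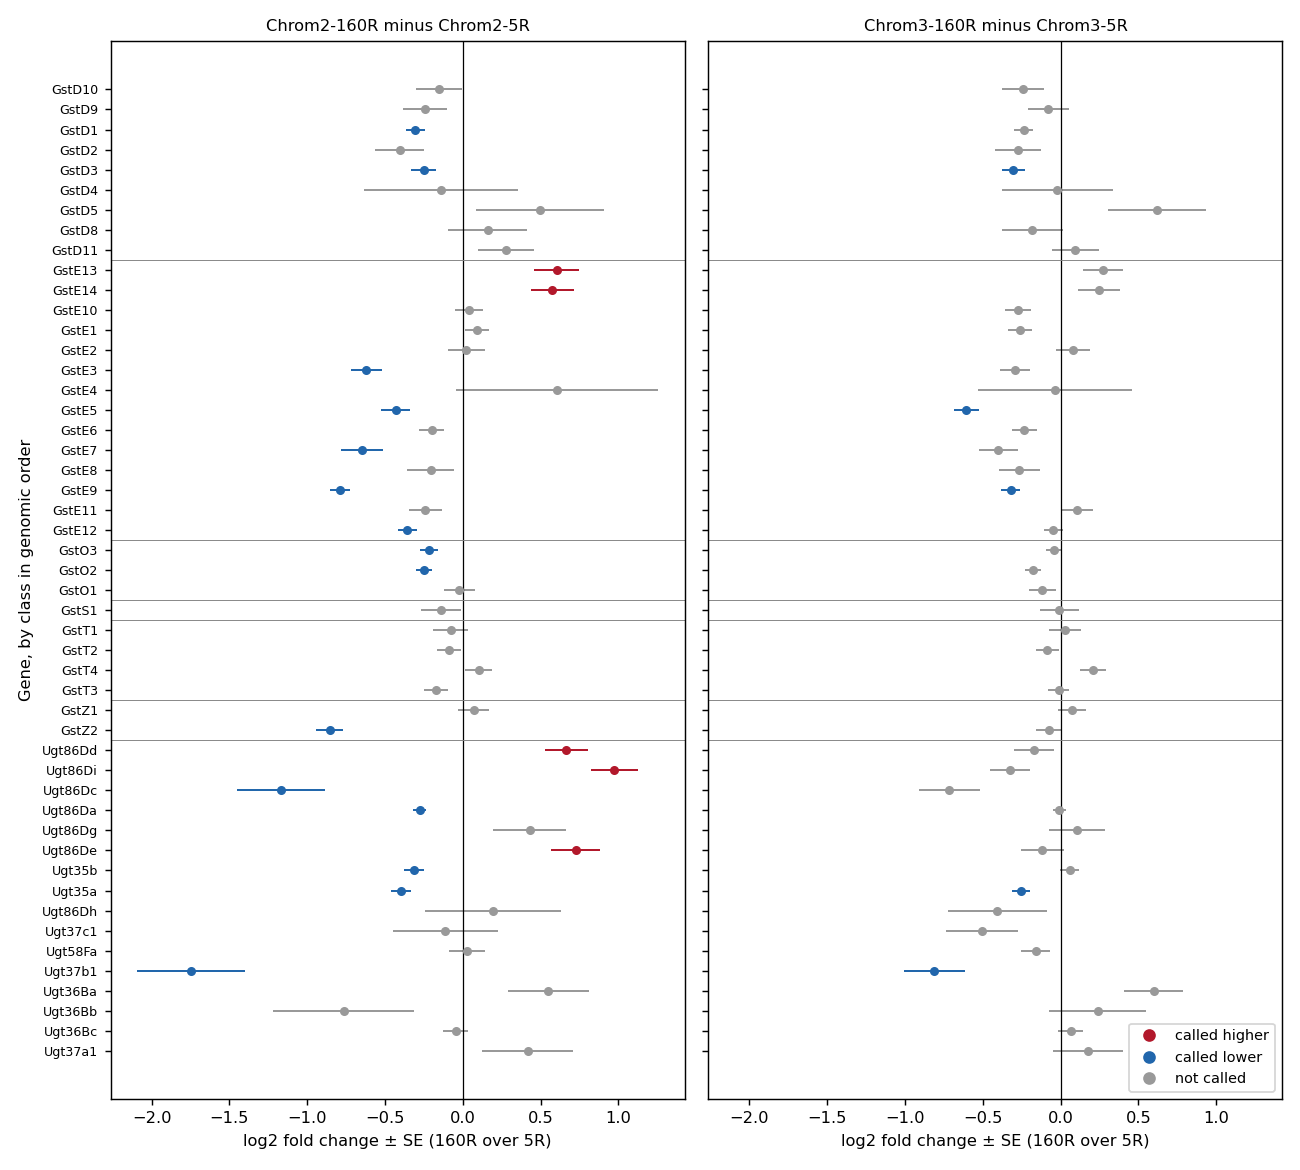
log2 fold change ± SE of 160R over 5R for the 49 genes tested, with the transgene on chromosome 2 (left) and on chromosome 3 (right); 4 libraries per group, red and blue mark genes called higher and lower. On chromosome 2 the calls include 15 lower and 5 higher genes, and on chromosome 3 only 5 lower ones.

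Markers of several tissues moved in the same comparison, in which 12.8% of all genes tested were higher and 13.3% lower, 26.1% in all. The summed level of 7 fat body markers was 8409 to 9427 CPM in Chrom2-160R and 12588 to 16490 CPM in Chrom2-5R (3 of 7 lower, 0 higher), and that of 6 antennal support cell markers was 588 to 615 CPM in Chrom2-160R and 683 to 976 CPM in Chrom2-5R (3 of 6 lower, 0 higher). The 7 midgut markers summed to 44.6 to 60.5 CPM in Chrom2-160R and 96.1 to 128 CPM in Chrom2-5R (2 of 7 lower, 0 higher), with alphaTry at 0 in at least 1 library. The 8 muscle markers summed to 4390 to 8963 CPM in Chrom2-160R and 3314 to 3895 CPM in Chrom2-5R (4 of 8 higher, 0 lower). Of the other lists, neuron (2 of 6) and glia markers (2 of 5) had higher genes and no lower ones, while photoreceptor (2 of 6), hemocyte (1 of 5), Malpighian tubule (1 of 3) and female markers (2 of 3) had lower genes and no higher ones. Of 7 accessory gland and testis markers 1 was higher and 1 lower, with Acp26Aa, Acp53Ea and Peb at 0 in at least 1 library. The 1 oenocyte marker was not called. The part of these tissues in the Gst and Ugt changes was not tested. In whole heads, fewer cells of a type and less RNA per cell cannot be told apart.

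Among the Gst classes, E, the largest, carried the most called genes (7 of 14, with 2 of 3 for O and 1 of 2 for Z). Of all genes tested, 26.1% were called. GstE9 (BDGP6 chr2R:18409048-18409835) had 67.1, 65.7, 68.6 and 77.3 CPM in Chrom2-160R heads, against 125, 118, 117 and 122 CPM in Chrom2-5R heads. All 4 Chrom2-160R libraries lay far below all 4 Chrom2-5R libraries, a log2 change of -0.79 ± 0.06 (SE, adjusted p = 3.03e-07). GstE9 sits at the end of an array of 10 E-class genes (chr2R:18396638-18409835), which spans 13.2 kb and holds 12 genes in all. Of these 10 genes, 4 were lower and 0 higher, against 13.3% of all genes tested lower and 12.8% higher. The unadjusted test gave 5 lower and 0 higher, and DESeq2 and limma-voom each gave 4 lower and 0 higher. How many of all genes passed by those other criteria was not counted.

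The other 3 lower genes of the array were GstE3, GstE5 and GstE7. GstE3 had 26.5, 28.0, 27.4 and 31.4 CPM in Chrom2-160R heads, against 40.5, 39.0, 43.0 and 51.4 CPM in Chrom2-5R heads. GstE7 had 8.41, 8.91, 11.5 and 10.1 CPM in Chrom2-160R heads, against 14.1, 15.8, 14.8 and 16.4 CPM in Chrom2-5R heads. GstE5 had 6.34, 5.53, 5.03 and 6.37 CPM in Chrom2-160R heads, against 7.16, 7.97, 7.15 and 8.88 CPM in Chrom2-5R heads. In each of the 3, no Chrom2-160R library reached the lowest Chrom2-5R library, with log2 changes of -0.62 ± 0.10 for GstE3 (adjusted p = 0.000338), -0.65 ± 0.13 for GstE7 (adjusted p = 0.00240) and -0.43 ± 0.09 for GstE5 (adjusted p = 0.00239). The genes at the other end of the same array gave 0.04 ± 0.09 for GstE10, 0.09 ± 0.08 for GstE1 and 0.02 ± 0.12 for GstE2, and none was called (the plot of the arrays). GstE6 (-0.20) and GstE8 (-0.21) between and beside the lower genes were not called either, nor was GstE4, which averaged under 1 CPM. How the authors' counting treated reads that match several genes of an array is not given in the sources used here, so differences between neighbours are uncertain to that extent. GstE9 also overlaps the gene imd on the opposite strand by 40 bases, and GstE10 overlaps GstE1 by 127 bases.

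**Figure D3:**
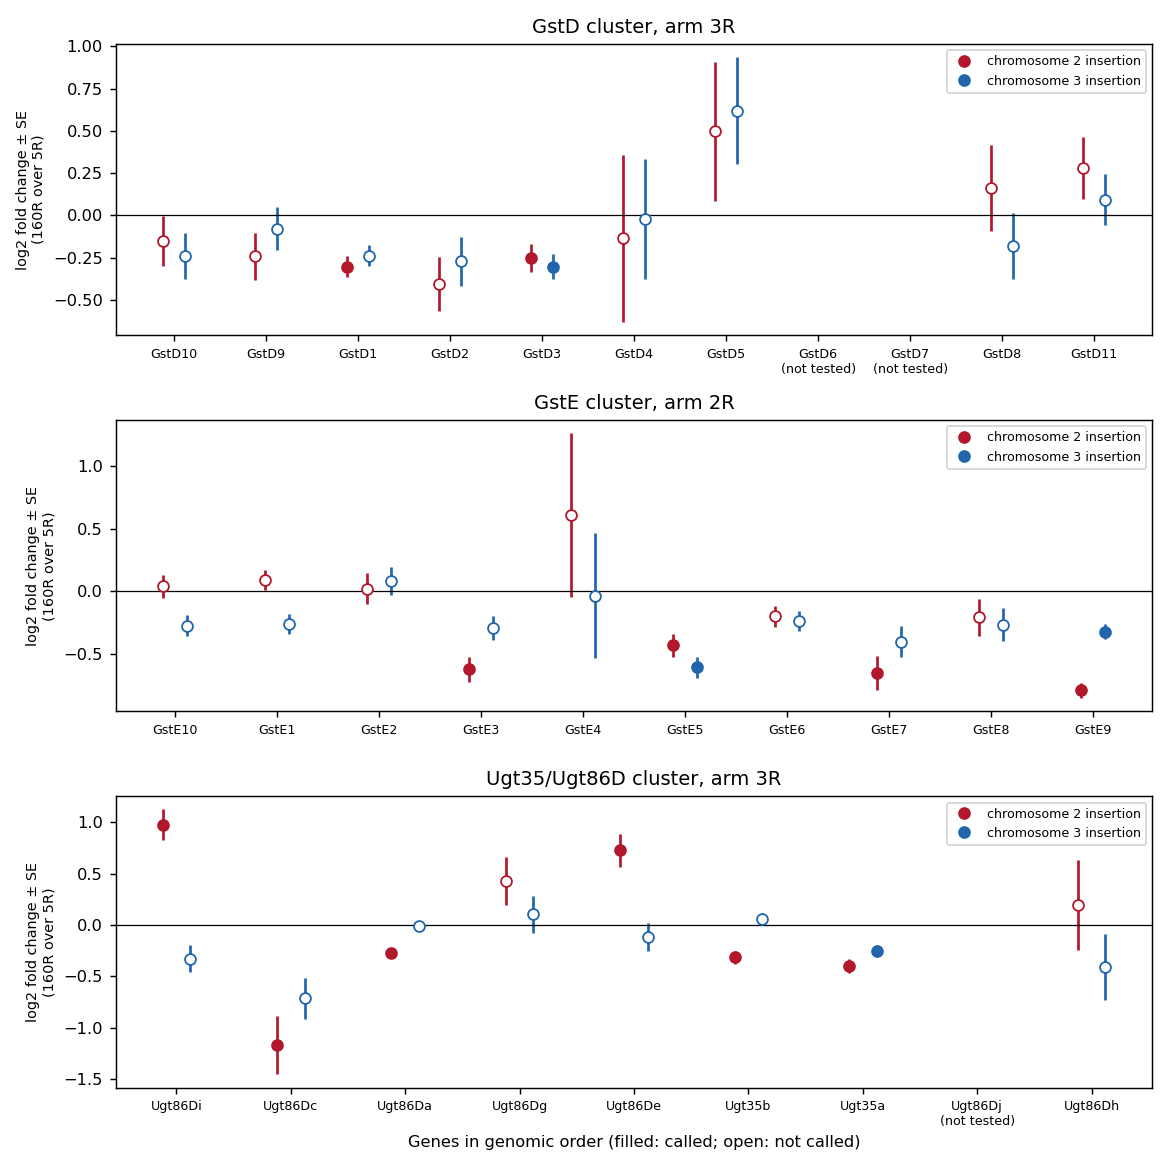
log2 fold change ± SE of 160R over 5R for the genes of the GstD, GstE and Ugt35/Ugt86D arrays in genomic order, for the chromosome 2 insertion (red) and the chromosome 3 insertion (blue); filled points were called. In the GstE array the filled points are GstE3, GstE5, GstE7 and GstE9, all below 0, while the Ugt array holds calls on both sides of 0.

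E-class genes elsewhere on 2R differed in direction. GstE12, the gene with the highest level, had 233, 209, 213 and 209 CPM in Chrom2-160R heads, against 286, 292, 269 and 260.2 CPM in Chrom2-5R heads, again without overlap (log2 change -0.36 ± 0.06, adjusted p = 0.000400). GstE14, known as noppera-bo and required for making the moulting hormone ecdysone, was higher instead, with 31.9, 30.1, 26.5 and 28.9 CPM in Chrom2-160R heads, against 14.8, 20.5, 21.0 and 21.5 CPM in Chrom2-5R heads. GstE13 was also higher, with 16.4, 11.5, 11.9 and 11.1 CPM in Chrom2-160R heads, against 7.07, 8.37, 8.65 and 9.05 CPM in Chrom2-5R heads. The groups did not overlap in either gene, and the log2 changes were 0.58 ± 0.14 for GstE14 (adjusted p = 0.00801) and 0.60 ± 0.14 for GstE13 (adjusted p = 0.00571). The highest GstE13 value was that of Chrom2-160R replicate 1, the library with the most muscle and accessory gland RNA. The call on GstE13 held without that library, and its adjusted p over all alternatives was 0.000525 to 0.0248. GstE13 overlaps CG18659, which had 6.58 times its counts, by 6 bases. GstE11 was not called (-0.24 ± 0.11).

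**Figure D4:**
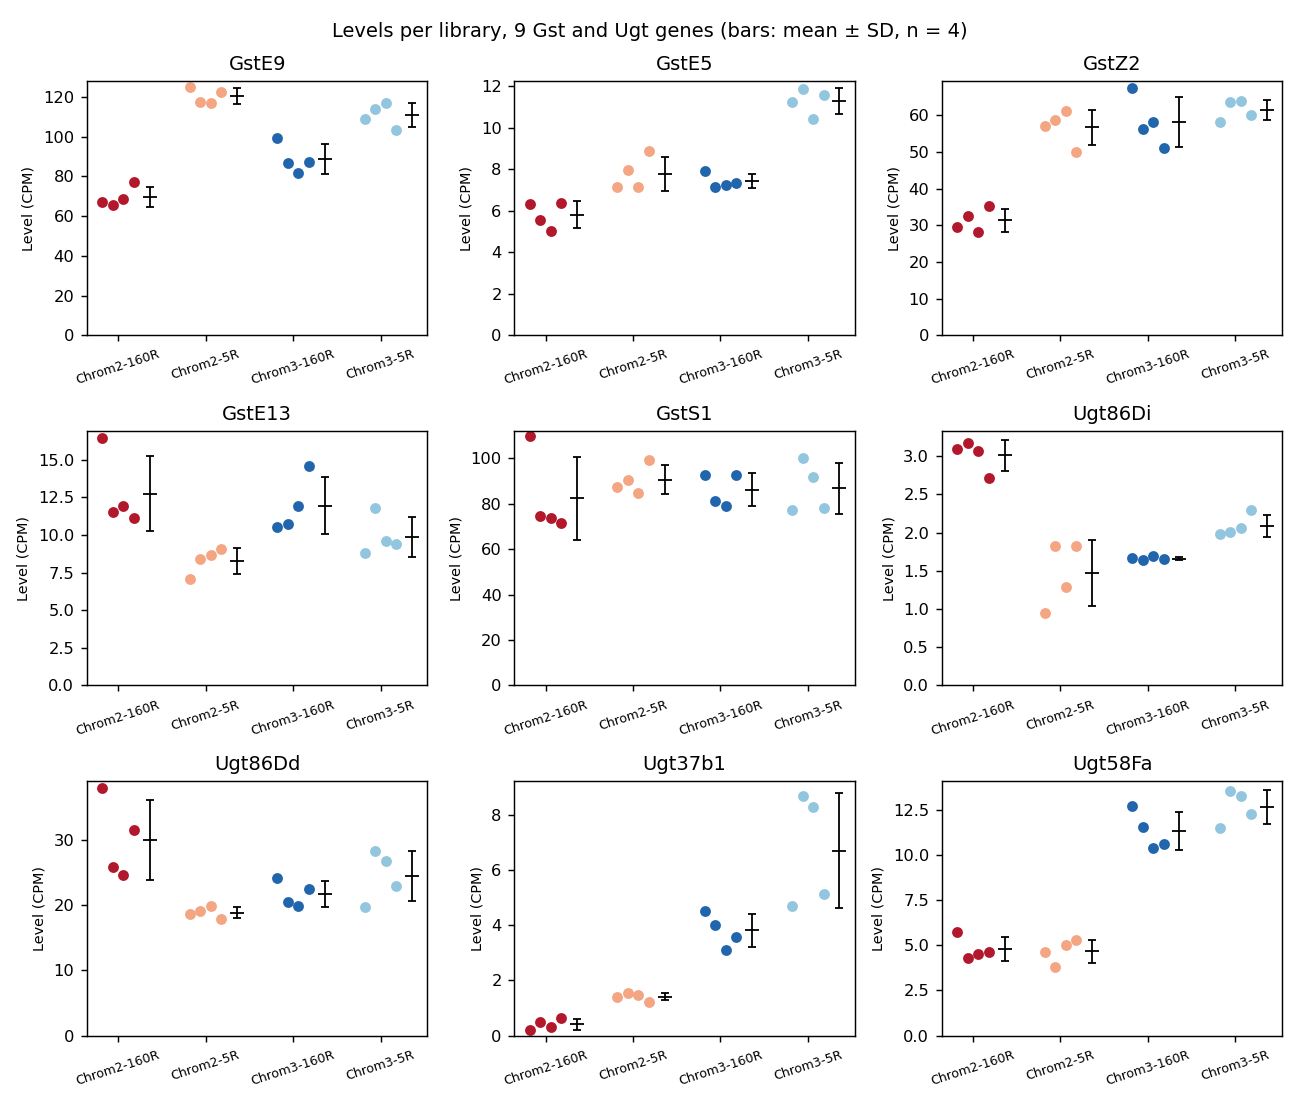
Level in each library (CPM, linear axes from 0) of 9 genes, with the mean ± SD of the 4 libraries of each group beside the points. The points of GstE9 and GstZ2 are lowest in Chrom2-160R, those of Ugt37b1 and Ugt58Fa are higher in both chromosome 3 groups, and Chrom2-160R replicate 1 is the top point for GstE13 and GstS1.

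The zeta class gave the lowest ratio among Gst genes. GstZ2 (chr3R:9456815-9460652), a relative of the mammalian maleylacetoacetate isomerase of tyrosine breakdown, had 29.5, 32.4, 28.3 and 35.1 CPM in Chrom2-160R heads, against 57.1, 58.8, 61.2 and 50.03 CPM in Chrom2-5R heads. Each Chrom2-160R library was below each Chrom2-5R library, a log2 change of -0.86 ± 0.09 (adjusted p = 3.3e-06). Its neighbour GstZ1 had 9.12, 7.25, 7.46 and 7.18 CPM in Chrom2-160R heads, against 7.07, 6.75, 6.82 and 8.66 CPM in Chrom2-5R heads, with overlapping groups and a change of 0.07 ± 0.10 (adjusted p = 0.727).

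In class D, GstD1, whose promoter serves in flies as a reporter of the oxidative stress factor cnc, had 138, 123, 127 and 131 CPM in Chrom2-160R heads, against 163, 157, 141 and 180.3 CPM in Chrom2-5R heads. The groups did not overlap, with a modest log2 change of -0.30 ± 0.06 (adjusted p = 0.00166). GstD3 had 8.11, 7.03, 7.62 and 8.62 CPM in Chrom2-160R heads, against 7.92, 10.2, 9.14 and 9.92 CPM in Chrom2-5R heads, where Chrom2-5R replicate 1 lay among the Chrom2-160R libraries. Its change of -0.25 ± 0.08 passed the test (adjusted p = 0.0329) but not with limma-voom (0.0516), with upper-quartile scaling (0.0675), with only the libraries compared in the fit (0.105), nor with any of 5 single libraries left out, which were replicates 2 (0.102) and 3 (0.0794) of Chrom2-160R and replicates 2 (0.112), 3 (0.0568) and 4 (0.0849) of Chrom2-5R, over a range of 0.0114 to 0.112. The other 7 class D genes tested had changes of -0.41 to 0.50 and were not called; GstD2 was the nearest to the threshold (-0.41 ± 0.16, adjusted p = 0.0703).

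In the omega class, GstO2 had 32.4, 30.4, 34.4 and 34.3 CPM in Chrom2-160R heads, against 35.0, 39.9, 41.2 and 40.2 CPM in Chrom2-5R heads. GstO3 had 25.1, 22.3, 24.2 and 27.4 CPM in Chrom2-160R heads, against 28.8, 27.9, 28.8 and 29.7 CPM in Chrom2-5R heads. Both were lower without overlap, with log2 changes of -0.25 ± 0.05 (adjusted p = 0.00247) and -0.22 ± 0.06 (adjusted p = 0.00854), and GstO1 was not called (-0.02 ± 0.10). GstO2 overlaps the eye pigment gene se, a transferase that the naming rule does not take, by 61 bases on the opposite strand. Unlike GstO2 and GstO3, se was higher, with 105, 44.3, 47.6 and 43.6 CPM in Chrom2-160R heads, against 23.6, 27.3, 21.9 and 25.1 CPM in Chrom2-5R heads. Its highest value was that of Chrom2-160R replicate 1.

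The sigma gene GstS1, known in flies as a flight muscle protein that clears 4-hydroxynonenal, had 109.6, 74.4, 73.8 and 71.6 CPM in Chrom2-160R heads, against 87.4, 90.3, 84.8 and 99.4 CPM in Chrom2-5R heads. The Chrom2-160R values were 71.6 to 74.4 CPM but for replicate 1, and the change of -0.14 ± 0.13 was not called (adjusted p = 0.478). The part of the muscle RNA described above in the value of replicate 1 was not tested. GstS1 was called lower when that library, or both libraries that stood apart, were left out. GstT1 was highest in the same library of its group, with 22.5, 17.0, 17.1 and 16.5 CPM in Chrom2-160R heads, against 17.9, 20.4, 15.5 and 22.7 CPM in Chrom2-5R heads. The 4 theta genes had changes of -0.17 to 0.10, and GstT2 overlaps CG12926 by 223 bases.

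Ugt genes split in direction. The lowest ratio of all 49 genes was that of Ugt37b1 (chr2L:6225048-6226842), with 0.203, 0.483, 0.304 and 0.620 CPM in Chrom2-160R heads, against 1.41, 1.52, 1.45 and 1.22 CPM in Chrom2-5R heads. Every Chrom2-160R library was below every Chrom2-5R library, at a log2 change of -1.75 ± 0.35 (adjusted p = 0.00182, 4.6e-06 to 0.0439 over the alternatives). On arm 3R, 9 Ugt genes lie within 26.9 kb (chr3R:11151026-11177910). Of the 8 tested there, 4 were lower and 2 higher, against 13.3% of all genes tested lower and 12.8% higher. Ugt86Dc, at low counts, had 0.710, 0.429, 0.337 and 0.229 CPM in Chrom2-160R heads, against 0.848, 0.863, 0.860 and 1.04 CPM in Chrom2-5R heads (log2 change -1.17 ± 0.28, adjusted p = 0.00598). Ugt35a had 8.82, 10.6, 9.82 and 9.18 CPM in Chrom2-160R heads, against 11.2, 12.8, 12.8 and 13.4 CPM in Chrom2-5R heads (log2 change -0.40 ± 0.07, adjusted p = 0.000359). In both genes the groups did not overlap.

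The more abundant members of the same array were lower by less. Ugt35b had 93.8, 84.2, 78.5 and 83.4 CPM in Chrom2-160R heads, against 104, 98.4, 111 and 108 CPM in Chrom2-5R heads (log2 change -0.31 ± 0.06, adjusted p = 0.00145). Ugt86Da had 44.3, 41.8, 42.5 and 45.3 CPM in Chrom2-160R heads, against 51.6, 53.4, 50.6 and 55.0 CPM in Chrom2-5R heads (log2 change -0.28 ± 0.04, adjusted p = 0.000172). The groups overlapped in neither gene.

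The 3 higher Ugt genes were Ugt86Di and Ugt86De in the array and Ugt86Dd, linked in fly populations to nicotine resistance, on the same arm. Ugt86Di had 3.09, 3.17, 3.07 and 2.71 CPM in Chrom2-160R heads, against 0.942, 1.83, 1.29 and 1.83 CPM in Chrom2-5R heads (log2 change 0.97 ± 0.15, adjusted p = 0.000189). Ugt86De had 3.497, 4.51, 3.54 and 4.57 CPM in Chrom2-160R heads, against 1.98, 3.25, 2.42 and 2.00 CPM in Chrom2-5R heads (log2 change 0.73 ± 0.16, adjusted p = 0.00307). Ugt86Dd had 38.0, 25.8, 24.6 and 31.4 CPM in Chrom2-160R heads, against 18.6, 19.1, 19.9 and 17.8 CPM in Chrom2-5R heads (log2 change 0.67 ± 0.14, adjusted p = 0.00247). All Chrom2-160R libraries exceeded all Chrom2-5R libraries in the 3 genes. Of the other 8 Ugt genes tested, Ugt36Bc (-0.05 ± 0.08) and Ugt58Fa (0.03 ± 0.12) were above 1 CPM, and none of the 8 was called (-0.77 to 0.55).

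With the transgene on chromosome 3 fewer genes were called, all of them lower. In Chrom3-160R against Chrom3-5R, 5 of 52 genes were lower and 0 higher by edgeR, against 1.43% of all genes tested lower and 0.673% higher, 2.11% in either direction. The unadjusted p was below 0.05 for 15 lower and 2 higher genes, DESeq2 called 11 lower and 0 higher, and limma-voom 9 lower and 0 higher. How many of all genes passed by these other criteria was not counted. The median log2 change was -0.09 over the 49 genes and 0.00 over all genes. All 4 Chrom3-160R libraries lay below all 4 Chrom3-5R libraries for 14 of the 49 genes (5.77% of all genes tested did so) and above them for 2 (5.7% of all genes). Without both libraries that stood apart, 6 genes were called. Fat body markers summed to 9723 to 10494 CPM in Chrom3-160R and 11696 to 13020 CPM in Chrom3-5R (1 of 7 lower, 0 higher), the midgut markers to 49.2 to 78.3 CPM in Chrom3-160R and 63.9 to 95.4 CPM in Chrom3-5R (1 of 7 lower), and the antennal support cell markers to 699 to 803 CPM in Chrom3-160R and 789 to 944 CPM in Chrom3-5R (0 of 6 called by edgeR, 1 lower at an unadjusted p below 0.05). The muscle markers summed to 2888 to 5180 CPM in Chrom3-160R and 2638 to 3529 CPM in Chrom3-5R (0 of 8 called by edgeR). Their part in the changes was not tested.

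The calls with the smallest p were again in the GstE array. GstE5 had 7.91, 7.13, 7.25 and 7.36 CPM in Chrom3-160R heads, against 11.2, 11.9, 10.4 and 11.6 CPM in Chrom3-5R heads, a log2 change of -0.61 ± 0.08 (adjusted p = 0.000303). GstE9 had 99.5, 86.7, 81.6 and 87.4 CPM in Chrom3-160R heads, against 109, 114, 117 and 103 CPM in Chrom3-5R heads, a log2 change of -0.32 ± 0.06 (adjusted p = 0.00731). The groups overlapped in neither gene, and both stayed called under all 17 alternatives, with adjusted p at most 0.00197 for GstE5 and 0.0323 for GstE9. Of the 10 genes of the array, 9 had a negative change, as did 6763 of all 13525 genes tested. In 7 (GstE10, GstE1, GstE3, GstE5, GstE6, GstE7 and GstE9) all Chrom3-160R libraries lay below all Chrom3-5R libraries, against 5.77% of all genes tested. The 5 of those 7 that were not called had adjusted p of 0.104 to 0.161. DESeq2 called 5 and limma-voom 3 of the 10 genes, all lower, and the shares of all genes called by those tools were not counted.

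Several other genes had groups that did not overlap on chromosome 3 but did not pass the test. GstE1 had 41.7, 40.3, 37.2 and 43.0 CPM in Chrom3-160R heads, against 46.7, 53.2, 47.5 and 46.9 CPM in Chrom3-5R heads (log2 change -0.26 ± 0.08, adjusted p = 0.104). GstO2 had 34.5, 34.0, 32.8 and 34.2 CPM in Chrom3-160R heads, against 37.2, 39.9, 38.5 and 37.5 CPM in Chrom3-5R heads (log2 change -0.18 ± 0.05, adjusted p = 0.0940). Ugt86Dc, called lower on chromosome 2, had 0.802, 0.955, 0.884 and 0.665 CPM in Chrom3-160R heads, against 1.21, 1.21, 1.30 and 1.69 CPM in Chrom3-5R heads (log2 change -0.71 ± 0.20, adjusted p = 0.0752). In these 3 genes the Chrom3-160R libraries were the lower ones, while GstT4 (0.21 ± 0.08, adjusted p = 0.249) and the low-level Ugt36Ba (0.60 ± 0.19, adjusted p = 0.132) were the 2 genes with every Chrom3-160R library above every Chrom3-5R library. The E-class genes that were higher on chromosome 2 gave 0.27 ± 0.13 for GstE13 (adjusted p = 0.344) and 0.25 ± 0.13 for GstE14 (adjusted p = 0.414), both with overlapping groups.

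The remaining 3 calls on chromosome 3 were close to the threshold. Ugt35a had 12.2, 13.2, 13.5 and 12.7 CPM in Chrom3-160R heads, against 15.5, 15.5, 15.4 and 15.3 CPM in Chrom3-5R heads (log2 change -0.26 ± 0.06, adjusted p = 0.0336). Ugt37b1 had 4.53, 4.01, 3.09 and 3.59 CPM in Chrom3-160R heads, against 4.71, 8.69, 8.29 and 5.12 CPM in Chrom3-5R heads (log2 change -0.81 ± 0.20, adjusted p = 0.0440). GstD3 had 10.5, 10.2, 10.5 and 10.7 CPM in Chrom3-160R heads, against 12.2, 14.2, 12.2 and 13.1 CPM in Chrom3-5R heads (log2 change -0.30 ± 0.07, adjusted p = 0.0412). The groups of each gene did not overlap, but all 3 calls depended on single libraries.

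Leaving out any 1 of the 8 libraries ended the call on GstD3. Its adjusted p was 0.0612, 0.127, 0.0939 and 0.0751 without Chrom3-160R replicates 1 to 4, and 0.0549, 0.0864, 0.0568 and 0.101 without Chrom3-5R replicates 1 to 4. A fit with replicate number as a block also ended the call on GstD3 (0.0710). Ugt35a was not called without Chrom3-160R replicates 1 (0.0705), 2 (0.0678) or 4 (0.0835), or without Chrom3-5R replicates 1 (0.0826), 2 (0.0523), 3 (0.0854) or 4 (0.0736), nor with no filter on low counts (0.0502). Ugt37b1 was not called without Chrom3-160R replicates 2 (0.107), 3 (0.14) or 4 (0.117), without Chrom3-5R replicates 2 (0.0904) or 3 (0.155), without both libraries that stood apart (0.0709), or with only the libraries compared (0.116). The block for replicate number ended its call as well (0.0860). Over all alternatives the adjusted p was 0.00212 to 0.127 for GstD3, 0.00111 to 0.0854 for Ugt35a and 0.00868 to 0.155 for Ugt37b1. GstD1, with 121, 116, 108 and 114 CPM in Chrom3-160R heads, against 129, 142, 138 and 133 CPM in Chrom3-5R heads, had groups that did not overlap either and lay just outside the threshold (-0.24 ± 0.06, adjusted p = 0.0503).

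All 5 genes lower on chromosome 3 were also lower on chromosome 2 (GstE5, GstE9, GstD3, Ugt35a and Ugt37b1), 5 of the 15 called lower there. How many of all genes called lower on chromosome 3 were also called lower on chromosome 2 was not counted. The chromosome 2 and chromosome 3 comparisons share no library, and 35 of the 49 genes (71.4%) had the same sign in both, against 61.5% of all genes tested. Both changes were negative for 25 of the 49 genes (51%), against 29.7% of all genes tested. Summed levels are given by class, without a test and only over genes that the naming rule took, so se is in no sum. Class E summed to 506 ± 15.6 CPM in Chrom2-160R and 629 ± 16.5 CPM in Chrom2-5R, and to 524 ± 24.4 CPM in Chrom3-160R and 579 ± 41.3 CPM in Chrom3-5R (SD, n = 4 libraries each). Class O summed to 63.0 ± 3.94 CPM in Chrom2-160R and 73.3 ± 3.43 CPM in Chrom2-5R, and to 64.5 ± 0.432 CPM in Chrom3-160R and 70.2 ± 2.28 CPM in Chrom3-5R. Class T summed to 106 ± 11.5 CPM in Chrom2-160R and 105 ± 7.15 CPM in Chrom2-5R, and to 108 ± 5.16 CPM in Chrom3-160R and 101 ± 4.80 CPM in Chrom3-5R. Class D summed to 162 ± 4.75 CPM in Chrom2-160R and 198 ± 18.6 CPM in Chrom2-5R, and to 152 ± 8.01 CPM in Chrom3-160R and 177 ± 5.17 CPM in Chrom3-5R. Class Z summed to 39.1 ± 2.73 CPM in Chrom2-160R and 64.1 ± 3.93 CPM in Chrom2-5R, but to 66.5 ± 6.37 CPM in Chrom3-160R and 69.3 ± 3.16 CPM in Chrom3-5R. Ugt genes summed to 252 ± 20.1 CPM in Chrom2-160R and 274 ± 14.9 CPM in Chrom2-5R, but to 321 ± 14.3 CPM in Chrom3-160R and 323 ± 15.5 CPM in Chrom3-5R. The sums of classes D and O did not overlap between 160R and 5R in either line, and most of the class D sum was GstD1, whose own change on chromosome 3 was not called.

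The repeat change differed between the lines for 8 of 52 genes, with 5 changes higher on chromosome 3 and 3 lower (3.9% and 3.36% of all genes tested, 7.27% in all), and the number was 8 without both libraries that stood apart as well. GstZ2 differed by 0.78 ± 0.12 on the log2 scale (adjusted p = 0.000831), since its change was -0.08 ± 0.08 on chromosome 3 and -0.86 ± 0.09 on chromosome 2. On chromosome 3 it had 67.4, 56.2, 58.3 and 51.2 CPM in Chrom3-160R heads, against 58.2, 63.6, 64.0 and 60.1 CPM in Chrom3-5R heads, with overlapping groups. GstE9 was lower in both lines but by less on chromosome 3 (difference 0.47 ± 0.09, adjusted p = 0.00349). GstE12 had changes of -0.05 ± 0.06 on chromosome 3 and -0.36 ± 0.06 on chromosome 2 (difference 0.31 ± 0.08, adjusted p = 0.0362).

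The call on GstE12 was lost under 11 of 24 alternatives (0.00641 to 0.0760). One was upper-quartile scaling (0.0529), and the others each left out a single library: replicates 1 (0.0648) and 2 (0.0565) of Chrom3-160R, 1 (0.0644) and 3 (0.0518) of Chrom3-5R, 2 (0.076), 3 (0.0642) and 4 (0.0586) of Chrom2-160R, and 1 (0.0699), 2 (0.0737) and 3 (0.0534) of Chrom2-5R.

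The other 5 genes whose change differed were Ugt genes of arm 3R. The 3 that were higher in 160R heads on chromosome 2 were not so on chromosome 3. Ugt86Di had 1.66, 1.64, 1.69 and 1.65 CPM in Chrom3-160R heads, against 1.98, 2.00, 2.06 and 2.29 CPM in Chrom3-5R heads, a change of -0.33 ± 0.13 that did not pass the test (adjusted p = 0.235) although the groups did not overlap. The difference between its changes was -1.30 ± 0.20 (adjusted p = 0.000801). Ugt86Dd (difference -0.84 ± 0.19, adjusted p = 0.0148) and Ugt86De (-0.84 ± 0.21, adjusted p = 0.0229) also differed. The call on Ugt86De was lost when replicate 2 of Chrom3-160R (0.0542) or replicate 2 of Chrom2-160R (0.0519) was left out, over a range of 0.00525 to 0.0542. Ugt35b (0.37 ± 0.09, adjusted p = 0.0152) and Ugt86Da (0.27 ± 0.06, adjusted p = 0.0108) were lower in 160R heads on chromosome 2, with changes of 0.06 ± 0.06 and -0.01 ± 0.04 on chromosome 3.

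The lines also differed at equal repeat length. Between the long-repeat groups, 17 of 52 genes were higher and 7 lower in Chrom3-160R than in Chrom2-160R (11.8% and 10.7% of all genes tested, 22.5% in all). Between the short-repeat groups, 13 were higher and 5 lower in Chrom3-5R than in Chrom2-5R (15.4% and 14.9% of all genes, 30.3% in all). Line, insertion chromosome and sequencing depth change together here and cannot be told apart. These comparisons share their libraries with the repeat comparisons above.

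Tissue markers also differed between the lines, where 22.5% of all genes tested were called among 160R groups and 30.3% among 5R groups. All 6 photoreceptor markers were lower in the chromosome 3 line in both comparisons, with summed levels of 14048 to 15557 CPM in Chrom3-160R and 18146 to 22110 CPM in Chrom2-160R, and of 14280 to 15266 CPM in Chrom3-5R and 21234 to 30452 CPM in Chrom2-5R. Of 7 fat body markers 3 were higher and 0 lower in Chrom3-160R than in Chrom2-160R, and 1 was higher and 2 lower in Chrom3-5R than in Chrom2-5R. Of 6 antennal support cell markers 2 were higher in Chrom3-160R and 1 was lower in Chrom3-5R. Of 6 neuron markers 3 were lower in Chrom3-160R, and 2 were higher and 2 lower in Chrom3-5R. Each of the other lists had at most 2 called genes in either comparison. The part of these tissues in the line differences was not tested.

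The widest gap was that of Ugt37b1, which had 4.71, 8.69, 8.29 and 5.12 CPM in Chrom3-5R heads, against 1.41, 1.52, 1.45 and 1.22 CPM in Chrom2-5R heads. Its log2 difference was 3.19 ± 0.29 between the 160R groups (adjusted p = 3.13e-06) and 2.26 ± 0.25 between the 5R groups (adjusted p = 8.16e-06), and the groups overlapped in neither comparison. Ugt58Fa, which was not called for repeat length in either line, had 12.7, 11.5, 10.4 and 10.6 CPM in Chrom3-160R heads, against 5.73, 4.29, 4.49 and 4.64 CPM in Chrom2-160R heads. Between the 5R groups it had 11.5, 13.5, 13.2 and 12.3 CPM in Chrom3-5R heads, against 4.62, 3.81, 5.00 and 5.26 CPM in Chrom2-5R heads. Its libraries formed 2 separate sets by line, with differences of 1.24 ± 0.10 (160R, adjusted p = 8.4e-07) and 1.43 ± 0.11 (5R, adjusted p = 1.17e-07).

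**Figure D5:**
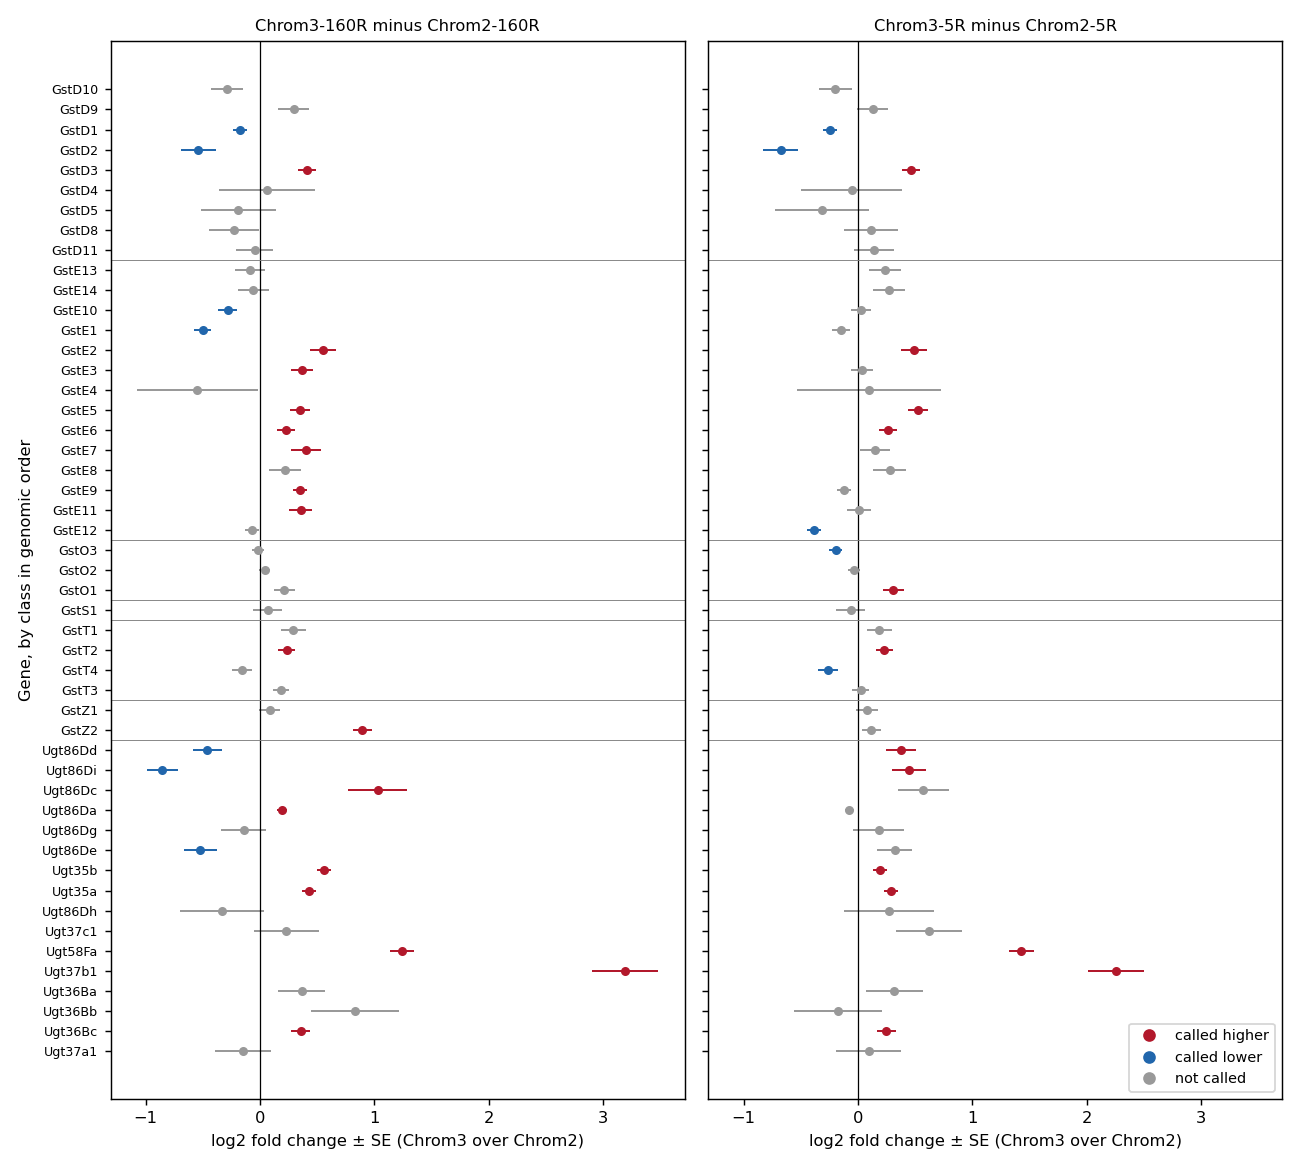
log2 fold change ± SE of the chromosome 3 line over the chromosome 2 line for the 49 genes tested, among 160R groups (left) and 5R groups (right); 4 libraries per group, red and blue mark genes called higher and lower. Ugt37b1 and Ugt58Fa lie farthest to the right in both panels.

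Among Gst genes, GstD2 was lower and GstD3, its neighbour, higher in the chromosome 3 line. GstD2 had 1.92, 1.45, 1.67 and 2.00 CPM in Chrom3-5R heads, against 2.36, 2.79, 3.22 and 2.78 CPM in Chrom2-5R heads (log2 difference -0.67 ± 0.15, adjusted p = 0.00307). GstD3 had 12.2, 14.2, 12.2 and 13.1 CPM in Chrom3-5R heads, against 7.92, 10.2, 9.14 and 9.92 CPM in Chrom2-5R heads in that comparison (log2 difference 0.46 ± 0.08, adjusted p = 0.000325). Among 5R groups GstE5 (0.53 ± 0.09, adjusted p = 0.000218) and GstE2 (0.49 ± 0.12, adjusted p = 0.00468) were also higher in Chrom3-5R. Among 160R groups, GstZ2 (0.89 ± 0.08, adjusted p = 3.1e-06), Ugt86Dc (1.03 ± 0.26, adjusted p = 0.00823) and Ugt35b (0.56 ± 0.06, adjusted p = 1.07e-05) were higher and Ugt86Di (-0.85 ± 0.13, adjusted p = 0.000248) was lower in Chrom3-160R. Between the 5R groups those 4 genes gave 0.12, 0.57, 0.19 and 0.45.

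In all, 14 genes were called in both line comparisons, 14 of 24 among 160R groups and 14 of 18 among 5R groups. Of all genes tested, 22.5% were called among 160R groups and 30.3% among 5R groups. The share of all genes called in both, or in the same direction, was not counted. Of the 14 genes, 12 had the same direction in both (GstD1 and GstD2 lower, and GstD3, GstE2, GstE5, GstE6, GstT2, Ugt35a, Ugt35b, Ugt36Bc, Ugt37b1 and Ugt58Fa higher), and Ugt86Dd and Ugt86Di had opposite directions. The other calls among 160R groups were GstE3, GstE7, GstE9, GstE11, GstZ2, Ugt86Da and Ugt86Dc, higher, and GstE1, GstE10 and Ugt86De, lower in Chrom3-160R. The other calls among 5R groups were GstO1, higher, and GstE12, GstO3 and GstT4, lower in Chrom3-5R.

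Among 160R groups, 10 of the 24 calls were lost under at least 1 alternative other than the replicate block, with adjusted p in brackets. The call on GstD1 was lost without Chrom3-160R replicates 1, 2, 3 or 4 or Chrom2-160R replicates 1, 3 or 4 (0.0510 to 0.151), or with limma-voom (0.0514) or with no filter on low counts (0.0800) or without both libraries that stood apart (0.171). GstD2 was not called without Chrom3-160R replicates 1 or 3 or Chrom2-160R replicate 1 (0.0514 to 0.0693), or without both libraries that stood apart (0.0743). GstE10 did not pass without Chrom3-160R replicates 3 or 4 or Chrom2-160R replicates 3 or 4 (0.0523 to 0.0707), or without both libraries that stood apart (0.0623). The call on GstE11 was lost without Chrom3-160R replicates 1 or 2 or Chrom2-160R replicate 4 (0.0525 to 0.0709), or with only the libraries compared (0.0510). GstE3 was not called without both libraries that stood apart (0.0728). GstE6 did not pass without Chrom3-160R replicates 1, 2, 3 or 4 or Chrom2-160R replicates 1, 2, 3 or 4 (0.0506 to 0.123), or with RLE scaling (0.0536) or with upper-quartile scaling (0.0846) or with no filter on low counts (0.0503) or without both libraries that stood apart (0.109). The call on GstE7 was lost without Chrom3-160R replicates 1 or 4 or Chrom2-160R replicates 1, 2 or 4 (0.0630 to 0.109), or with limma-voom (0.0790) or with only the libraries compared (0.115) or without both libraries that stood apart (0.208). GstT2 was not called without Chrom3-160R replicate 1 or Chrom2-160R replicates 1, 3 or 4 (0.0532 to 0.0985), or with upper-quartile scaling (0.0543) or with only the libraries compared (0.0502). Ugt86Dd did not pass without Chrom3-160R replicates 2 or 3 or Chrom2-160R replicates 1 or 4 (0.0514 to 0.0591), or without both libraries that stood apart (0.0724). The call on Ugt86De was lost without Chrom2-160R replicate 4 (0.0546).

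Among 5R groups, 8 of the 18 calls were lost under at least 1 alternative other than the replicate block, with adjusted p in brackets. The call on GstE6 was lost without Chrom3-5R replicate 2 or Chrom2-5R replicates 1, 2 or 3 (0.0515 to 0.0783). GstO1 was not called without Chrom2-5R replicates 1, 2 or 4 (0.0536 to 0.0662). GstT2 did not pass without Chrom3-5R replicates 1, 2 or 3 or Chrom2-5R replicates 1, 2 or 3 (0.0539 to 0.0847). The call on GstT4 was lost without Chrom3-5R replicates 1 or 4 or Chrom2-5R replicates 3 or 4 (0.0580 to 0.0684). Ugt35b was not called without Chrom3-5R replicates 2 or 4 or Chrom2-5R replicates 1 or 2 (0.0613 to 0.0999). Ugt36Bc did not pass without Chrom3-5R replicates 2 or 4 or Chrom2-5R replicates 1, 2 or 3 (0.0746 to 0.103). The call on Ugt86Dd was lost without Chrom3-5R replicates 2, 3 or 4 or Chrom2-5R replicates 1, 2, 3 or 4 (0.0614 to 0.130), or with RLE scaling (0.05001) or with limma-voom (0.0731). Ugt86Di was not called without Chrom3-5R replicate 4 or Chrom2-5R replicates 1 or 3 (0.0819 to 0.117), or with DESeq2 (0.0575) or with only the libraries compared (0.0814). Without Chrom2-5R replicate 1, the shallowest library, 11 genes were called among 5R groups in place of 18. Without both libraries that stood apart, 18 genes were called among 160R groups in place of 24.

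The 18 genes that carry a Ugt name only as their current symbol lay outside the naming rule, and 14 of them were tested. In Chrom2-160R against Chrom2-5R, 6 were higher and 3 lower, with a median change of 0.15. Of all genes tested, 12.8% were higher and 13.3% lower in that comparison. CG17322, now Ugt36E1, had 4.46, 8.05, 7.76 and 8.07 CPM in Chrom2-160R heads, against 15.7, 15.5, 20.05 and 15.7 CPM in Chrom2-5R heads (log2 change -1.23 ± 0.18, adjusted p = 0.000245). CG4302, now Ugt49B1, had 60.6, 41.8, 42.8 and 45.9 CPM in Chrom2-160R heads, against 88.3, 85.6, 87.7 and 86.1 CPM in Chrom2-5R heads (log2 change -0.86 ± 0.10, adjusted p = 3.93e-05). In both genes all Chrom2-160R libraries were the lower ones. CG15661 (Ugt49C1) was also lower (-0.30), and CG10178 (0.55), CG17323 (0.46), CG17324 (0.28), Dot (0.26) and CG3797 (0.10) were higher. CG11289 was higher too, from few counts (0.426 ± 0.221 CPM in Chrom2-160R and 0.0859 ± 0.0859 CPM in Chrom2-5R). Without Chrom2-160R replicate 1, 4 were higher and 3 lower, CG10178 (adjusted p = 0.0858) and CG3797 (0.0871) being lost, and the same counts held without both libraries that stood apart. The call on CG10178 was also lost without Chrom2-5R replicates 1, 2 or 3 (0.0629 to 0.0743), that on Dot without Chrom2-160R replicate 2 or Chrom2-5R replicates 2 or 3 (0.0522 to 0.0818), and that on CG3797 without each other library of the comparison but Chrom2-5R replicate 2 (0.0536 to 0.126). Over all alternatives the adjusted p was 0.00236 to 0.0978 for CG10178, 0.00271 to 0.0818 for Dot and 0.0106 to 0.164 for CG3797.

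In Chrom3-160R against Chrom3-5R, 1 of the 18 was higher and 2 were lower, with a median change of 0.04. Of all genes tested, 0.673% were higher and 1.43% lower in that comparison. CG17322 was lower on chromosome 3 as well, with 11.9, 9.45, 8.74 and 7.54 CPM in Chrom3-160R heads, against 17.3, 15.7, 16.1 and 12.6 CPM in Chrom3-5R heads (log2 change -0.71 ± 0.17, adjusted p = 0.0402). CG30438 (Ugt50B3) had 34.9, 31.2, 32.5 and 31.8 CPM in Chrom3-160R heads, against 45.2, 43.5, 44.5 and 42.5 CPM in Chrom3-5R heads (log2 change -0.43 ± 0.06, adjusted p = 0.000961), and CG17324 was higher in both lines (0.35 ± 0.06 on chromosome 3, 0.28 ± 0.07 on chromosome 2). The groups did not overlap in any of these. The call on CG17322 was lost without Chrom3-160R replicates 2, 3 or 4 or Chrom3-5R replicates 1, 2 or 3 (0.0658 to 0.127) and with no filter on low counts (0.0603), over a range of 0.00103 to 0.127, and the counts were the same without both libraries that stood apart. Several of these genes overlap others on the opposite strand. CG17322 overlaps CG17597, which had 2.03 times its counts, by 48 bases. CG11289 overlaps Pvf2, which had 19.9 times its counts, by 11 bases. With partners of fewer counts, the overlaps were 90 bases for CG4302, 464 for Dot and 4430 for CG30438.

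The genes around these enzymes were described with 7 lists of 43 genes in all, of which 42 were tested, chosen with earlier results of these data known. All 4 genes of cytosolic NADPH supply, which keeps glutathione reduced, were lower in Chrom2-160R than in Chrom2-5R: Idh (408 ± 24.1 CPM in Chrom2-160R and 669 ± 54.4 CPM in Chrom2-5R, log2 change -0.71 ± 0.06, adjusted p = 8.94e-07), the malic enzyme Men (-0.68), Pgd (-0.37) and Zw (-0.26), with a list median of -0.53. Of 4 regulators of the oxidative and xenobiotic response 3 were lower and 0 higher: cnc, the fly Nrf2 (469 ± 8.62 CPM in Chrom2-160R and 549.5 ± 58.1 CPM in Chrom2-5R, log2 change -0.23 ± 0.06, adjusted p = 0.00912), its inhibitor Keap1 (-0.30) and its partner maf-S (-0.15), with a list median of -0.19. The groups overlapped for cnc and Keap1. DESeq2 called the same numbers in both lists, and limma-voom called 3 of the NADPH genes, without Zw (0.0589), and 2 of the regulators, without maf-S (0.0532). The call on Zw was lost without Chrom2-160R replicates 2 or 4 or Chrom2-5R replicates 1, 2 or 3 (0.0544 to 0.0784; 0.00696 to 0.0784 over all alternatives). That on maf-S was lost without Chrom2-160R replicates 1, 2 or 3 or Chrom2-5R replicates 1, 3 or 4 (0.0611 to 0.130; 0.0234 to 0.197 over all alternatives, the highest with upper-quartile scaling).

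Of 18 genes of glutathione synthesis and thiol redox balance, 3 were lower and 1 higher in Chrom2-160R, with a list median of -0.01. That is 22.2% called, near the 26.1% of all genes tested. The lower ones were the peroxiredoxins Jafrac2 (-0.88) and Jafrac1 (-0.36) and the glutathione peroxidase PHGPx (-0.31), and the higher one was the thioredoxin TrxT (1.27), which averaged under 1 CPM in both groups. Superoxide dismutase Sod was the 1 of 4 superoxide and peroxide genes called (-0.28, list median -0.12). Of 5 other transferases, Ef1gamma (-0.55) and the microsomal Mgstl (-0.42) were lower and se (1.29) and Dot were higher (list median -0.10). Of 5 export pumps Mdr65, the drug pump of the blood-brain barrier, was higher (0.38, list median -0.02), and of 3 genes that supply UDP-glucuronate sgl, the enzyme that makes it, was higher (0.20, list median -0.23). The list median for UDP-glucuronate supply was negative while its 1 called gene was higher. The other genes of that list, UGP and Pgm, were not called. UGP had 232 ± 61.6 CPM in Chrom2-160R and 271 ± 65.0 CPM in Chrom2-5R, and Pgm had 195 ± 36.9 and 229 ± 14.7 CPM. Over the 7 lists, 5 of 42 genes tested were higher and 13 lower, against 12.8% higher and 13.3% lower of all genes tested. Leaving out Chrom2-160R replicate 1 gave 3 higher and 14 lower, with the calls on TrxT (0.0696) and Mdr65 (0.101) lost. TrxT was also not called without Chrom2-5R replicates 2 or 4 (0.0598 to 0.0866), nor Mdr65 without Chrom2-5R replicates 1, 2 or 3 (0.0748 to 0.0902). Over all alternatives the adjusted p was 0.0178 to 0.0866 for TrxT and 0.000698 to 0.123 for Mdr65. Without both libraries that stood apart, 3 genes were higher and 15 lower.

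With the transgene on chromosome 3, edgeR called 0 of the 42 genes tested, against 2.11% of all genes tested. At an unadjusted p below 0.05, 3 were higher and 4 lower, DESeq2 called 1 higher, and limma-voom called 1 lower. How many of all genes passed by these other criteria was not counted. The list medians were -0.09 for NADPH supply, -0.04 for the regulators, -0.02 for thiol redox balance, 0.09 for superoxide and peroxide removal, 0.09 for other transferases, 0.19 for export pumps and 0.03 for UDP-glucuronate supply, against 0.00 over all genes.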

How the data were processed

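Strand-specific libraries without poly(A) selection were made from Trizol-extracted RNA of frozen heads, per the labels' protocols. The deposited files hold the authors' raw counts per gene span, 1 file per library. Per the submitters' processing notes, Trimmomatic, STAR, bedtools and DESeq were used with the builds BDGP6 and mm10; their roles and settings, whether counting used strand and how reads matching several genes were counted are not stated there, so antisense overlaps and genes of 1 array are uncertain. Coordinates are BDGP6, counted from 1. Of the 52 genes, 51 had identical positions in release 115 of the fly annotation.

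The counts of 16 libraries were fitted with edgeR 4.0.16 in R 4.3.3: filterByExpr kept 13525 genes, TMM scaled the libraries, and glmQLFit (robust) fitted 4 group means. Calls rest on glmQLFTest, with p-values adjusted after Benjamini and Hochberg over all genes tested and a threshold of 0.05. For the chromosome 2 comparison alone, the fit was also run on counts simulated from the mean levels and fitted dispersions of these data. Such counts cannot show how well the model suits the real libraries. Changes are log2 ± SE, and levels are TMM-scaled CPM. On that scale 1 CPM stood for 10.6 counts in Chrom2-5R replicate 1, the shallowest library, and for 55.5 counts in Chrom3-5R replicate 4, the deepest.

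Named with values were, per comparison, the called genes with the largest changes (10 for repeat length, 6 for the others), genes called in both lines, and the 2 highest genes of each class per kb; other called genes are named so that each call is accounted for. From the other lists, called genes are named. Genes and lists were chosen with earlier results of these data known. Alternatives were RLE and upper-quartile scaling, DESeq2 1.42.0, limma-voom (limma 3.58.1), no filter, a stricter filter (1 CPM), only the libraries compared, a replicate block, each library left out, both libraries that stood apart left out, and overlapping genes left out.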

Additional observations from a re-analysis of the deposited data

Results flagged for a closer look

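Values of single libraries were screened over 104 sets of 4 libraries (each of 26 named genes in each group); a library stood apart where its gap to the nearest other library passed Dixon's critical share of the range for 4 values. Chance gives about 1 in 20 sets, and 12 of the 104 stood apart. Chrom2-160R replicate 1 was above the other 3 libraries of its group in 5 of these: GstZ1 at 9.12 CPM, GstE13 at 16.4 CPM, GstT1 at 22.5 CPM, GstS1 at 109.6 CPM and Ugt36Bc at 80.0 CPM. This is the library with the most muscle and accessory gland RNA, whose part in these values was not tested. In the same group GstT2 was high in replicate 2 (17.1 CPM). In Chrom2-5R, replicate 4 was high for GstZ1 (8.66 CPM), Ugt86Dc (1.04 CPM) and Ugt36Bc (85.1 CPM). In Chrom3-5R, replicate 2 was high for GstZ1 (8.73 CPM) and GstE3 (52.3 CPM), and replicate 1 was low for Ugt86De (2.81 CPM).

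The change with repeat length differed between the lines for 8 genes by the test of the difference itself (chromosome 3 change minus chromosome 2 change, log2). The differences were 0.78 for GstZ2, 0.47 for GstE9, 0.37 for Ugt35b, 0.31 for GstE12, 0.27 for Ugt86Da, -0.84 for Ugt86Dd, -0.84 for Ugt86De and -1.30 for Ugt86Di.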

How the results depend on the processing

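Of 75 gene calls checked over the 5 comparisons, 51 held under every alternative, 24 were lost under at least 1, and 0 changed direction. The count for chromosome 3 (5 genes) was 11 with DESeq2, 9 with limma-voom and 9 with only the libraries compared. It was 2 to 4 when 1 library was left out, which also leaves fewer libraries. The cause of these differences was not tested, and the shares of all genes called under these settings were not counted. The count for Chrom3-5R against Chrom2-5R (18 genes) was 11 to 16 with 1 library left out, and that for Chrom3-160R against Chrom2-160R (24 genes) was 17 to 22, the lowest without Chrom2-160R replicate 4. Replicate numbers did not pair the samples: same-numbered libraries of different groups correlated at -0.247 to 0.244 in their deviations from the group means (24 pairs), and 4 of 16 libraries correlated best with their own number. With the replicate block, chromosome 3 gave 3 genes (GstD3 at an adjusted p of 0.0710 and Ugt37b1 at 0.0860 were lost) and chromosome 2 gave 20, as without it. The difference between the lines' repeat changes gave 8 genes with the block, as without it, Chrom3-160R against Chrom2-160R gave 20 (GstD1 at 0.0535, GstT2 at 0.0557, GstE6 at 0.0564 and GstE7 at 0.0730 were lost), and Chrom3-5R against Chrom2-5R gave 15 (Ugt86Dd at 0.0819, GstT4 at 0.0534 and Ugt36Bc at 0.0512 were lost). Outside these 52 genes, the block also ended the calls on CG17322 on chromosome 3 (0.0887), and on CG3797 (0.0751) and maf-S (0.0551) on chromosome 2. Other scalings moved the median change of all genes by less than 0.1. Depth limits the 11 genes under 1 CPM most.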
